A study of Prunus persica with 8 samples.

Results

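A segment of peach chromosome 2 upstream of TAC1 was examined gene by gene in the shoot tips of pillar and standard trees. The segment begins at 17 Mb on pseudomolecule Pp02 of peach genome version 2, is 5.2 Mb long and ends 1.03 Mb short of the start of TAC1. Its members were the genes that start in this interval and averaged at least 0.5 TPM (transcripts per 1000000, a level corrected for gene length and depth) over the 8 trees. Of 651 genes of the table that start in the segment, 449 were members, which is 2.24% of the 20055 genes at or above the same level genome wide. The other 202 genes fell under 0.5 TPM, and 59 of those were at 0 in every tree.

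The 4 pillar trees and the 4 standard trees came from 1 segregating F2 family. The family was raised by selfing KV991636, a tree heterozygous for the pillar trait. Pillar trees of this family are described as tac1/tac1, and those of standard habit as TAC/TAC1. The paper describes heterozygous trees as upright, and the population as segregating for pillar, upright and standard habit. No tree labelled upright was sampled. All 8 were untreated mature trees in 1 research orchard. RNA was taken from the tips of lateral branches, with leaves removed, and each tree gave 1 library. The genotypes of the trees along the segment were not analysed here. The pillar trees are numbered 4, 7, 8 and 10, and the standard trees 7, 8, 9 and 10. A number shared by both groups does not tie the trees together in the labels.

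TAC1 belongs to a plant gene family that also includes LAZY1 and that acts on the angle of shoots and branches. It promotes outward growth of lateral branches, and peach trees without a working copy hold their branches upright. Genes that lie near a selected locus tend to be inherited together with it in a family such as this one, because crossing over separates neighbours rarely.

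TAC1 itself, Prupe.2G194000, lies outside the segment, at positions 23233979 to 23236950, and served as a check of the labels. It had 0.802, 0.830, 1.15 and 1.27 TPM in pillar trees, against 23.8, 17.2, 25.9 and 28.2 TPM in standard trees. All 8 libraries therefore stood on the side of their label. Libraries held 18429259 to 23994336 reads, recovered from the TPM steps. The members took 1.28% of all TPM in pillar trees and 1.30% in standard trees. Their mean level had a median of 12.1 TPM and ran from 0.511 to 604 TPM, and a median member had 383 reads per tree. Levels were set against the whole gene region, introns included, with a median of 3181 bases. The tissue was not checked against cell type markers, because the gene identifiers carry no names in the tables used here. In whole shoot tips, fewer cells of a type and less RNA per cell cannot be told apart.

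Most genes of the segment had similar levels in both kinds of tree. Of the 449 members, 87.5% were within 1.5-fold between the groups, against 94.3% of all genes tested. The median log2 fold change, pillar over standard on the log2(TPM + 0.5) scale, was -0.08 in the segment, against -0.09 over all genes tested. A positive fold change was found for 147 members and a negative one for 302. Over all genes tested the lean was similar, with 6153 positive and 13902 negative. In the test across the genome, 11 members had an adjusted p under 0.05 in limma with Benjamini-Hochberg adjustment over all 20055 genes, which is 2.45% of the members. The share over all genes tested was 0.120%, or 24 genes, so that 45.8% of all genes that passed lie in the segment. Of the 11, 6 were higher and 5 lower in pillar trees, where 0.0598% of all genes tested passed in each direction. At an unadjusted p of at most 0.05 with a fold change over 1.5 and an average of 5 reads in each group, 38 members passed, 19 in each direction. This is 8.46% of the members, against 2.23% of all genes tested, or 1.12% higher and 1.11% lower. An unadjusted p under 0.05 was found for 65 members (14.5%), against 4.77% of all genes tested.

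The ranges of the 2 groups did not overlap for 47 members, 22 of them higher and 25 lower in pillar trees. This is 10.5% of the members, against 2.93% of all genes tested, or 1% higher and 1.93% lower. Of the 47, 28 differed by more than 1.5-fold and 19 by less. The spread of log2 fold changes along the segment is shown in the plot of all members by distance from TAC1, in which the genes past the test lie both above and below the line. When pillar tree 4 was left out, 93 members (20.7%) did not overlap, against 14.0% of all genes tested, and 11 members passed the adjusted test, among 36 of all genes tested. Of the 93, 65 were lower and 28 higher in pillar trees, against 2488 lower and 310 higher over all genes tested. For 135 of the members (30.1%), and for 6382 of all genes tested (31.8%), pillar tree 4 was the highest of the 8.

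**Figure D1:**
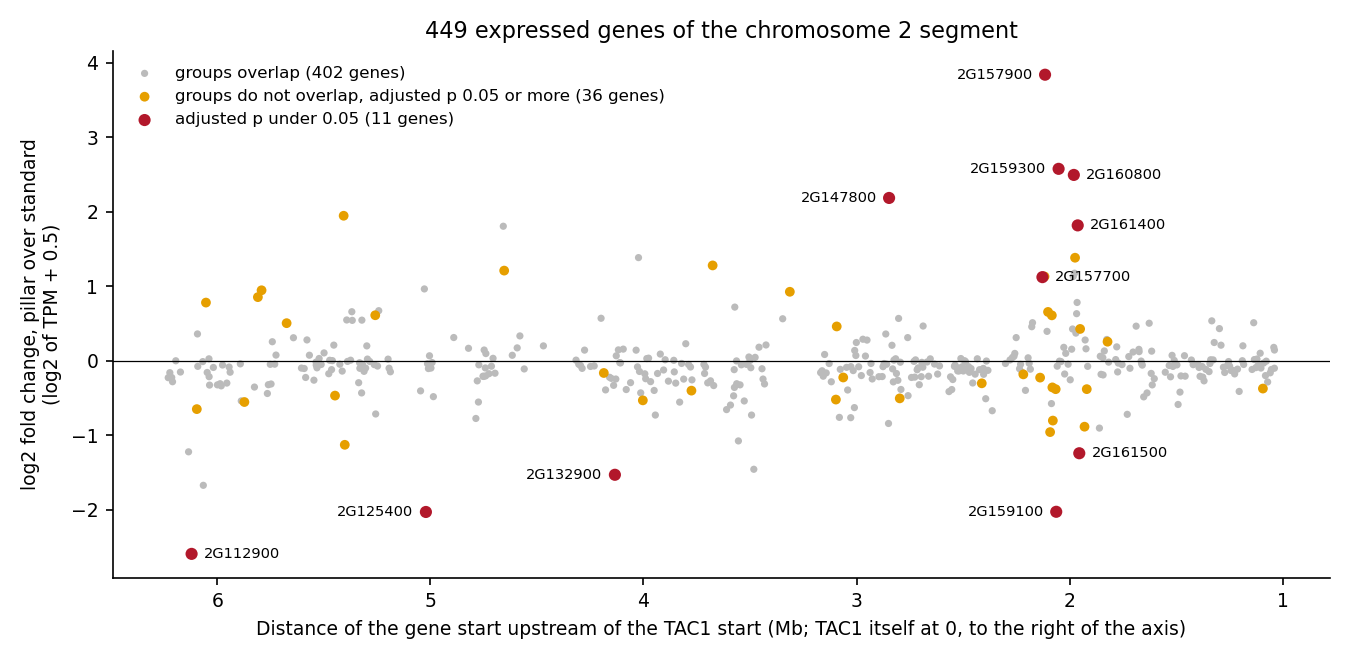
Each point is 1 of the 449 members, placed by the distance of its start upstream of the TAC1 start (x axis, Mb) and by its log2 fold change, pillar over standard (y axis, log2 of TPM + 0.5). Red points are the 11 genes with an adjusted p under 0.05, orange points the other genes whose 4 pillar and 4 standard trees did not overlap, and grey points the rest, most of which lie close to 0.

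Several members were present in the trees of 1 habit and near or at 0 in those of the other. Prupe.2G157900, at positions 21118802 to 21120260, had 6.45, 7.39, 6.87 and 6.98 TPM in pillar trees, against 0.0764 TPM in standard tree 7 and 0 TPM in the other standard trees. In reads this was 350 over the pillar trees against 1 over the standard trees, a depth-corrected ratio of 365 (exact 95% interval 65.0 to 14449, counting error only). Its log2 fold change of 3.84 ± 0.16 (SE) was the highest of the segment, with an adjusted p of 2.15e-05.

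The opposite pattern was found 0.0524 Mb further on. Prupe.2G159100, at positions 21171250 to 21173918, had 0 TPM in all pillar trees and 1.38, 1.66, 1.37 and 1.76 TPM in standard trees. No read fell on it in pillar trees against 149 in standard trees, so it was at least 47.7-fold lower in pillar trees, taking a floor of 3 reads over that group (adjusted p = 0.00499). Prupe.2G112900, at positions 17113525 to 17117895, lies at the far end of the segment and was the first member along it whose groups did not overlap. It fell to 0.136, 0, 0.126 and 0.0720 TPM in pillar trees, against 3.75, 1.87, 2.03 and 5.36 TPM in standard trees. On the log2 scale its fold change of -2.59 ± 0.31 (SE) was the lowest of the segment (adjusted p = 0.0178). The standard trees differed among themselves here, with trees 7 and 10 above trees 8 and 9.

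Prupe.2G159300, at positions 21182403 to 21185804, was close to absent in standard trees. It had 4.48, 2.98, 2.07 and 3.95 TPM in pillar trees, against 0.131, 0.1003, 0.130 and 0.157 TPM in standard trees, where 3 to 5 reads per tree stood behind these values. The pillar mean was 26.0 times the standard mean, and the log2 fold change was 2.58 ± 0.24 (SE; adjusted p = 0.00408). The 4 genes of these paragraphs reached the level for membership through 1 group only, and averaged under 5 reads in the other group. Of the 449 members, 16 had a group mean under 0.5 TPM, 9 with the pillar mean and 7 with the standard mean above it. No annotation was at hand for these 4 genes.

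Other genes were expressed in both kinds of tree but at clearly different levels. Prupe.2G147800, at positions 20386871 to 20388505, has no match in Arabidopsis in the annotation used by the study. It rose to 36.2, 30.2, 28.3 and 33.3 TPM in pillar trees, against 4.77, 10.9, 6.43 and 5.67 TPM in standard trees (a log2 fold change of 2.19 ± 0.22 SE, with an adjusted p of 0.00713). Even the highest standard tree, tree 8, had a lower level than any pillar tree.

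Prupe.2G125400, at positions 18213173 to 18215599, is annotated as a member of the DUF247 proteins, a plant family named only for a shared domain. It fell to 0.737, 0.749, 0.499 and 0.303 TPM in pillar trees, against 3.95, 4.73, 3.24 and 3.43 TPM in standard trees (a log2 fold change of -2.03 ± 0.21 SE, with an adjusted p of 0.00752). Prupe.2G132900, at positions 19100094 to 19103130, again without an Arabidopsis match, had 1.14, 0.941, 0.580 and 0.726 TPM in pillar trees, against 3.63, 2.997, 2.70 and 4.18 TPM in standard trees. It was lower in pillar trees by 1.53 on the log2 scale (log2 fold change -1.53 ± 0.21 SE, adjusted p = 0.0389), the highest adjusted p of the 11.

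Prupe.2G157700, at positions 21106472 to 21111100, is annotated as CPFTSY, the chloroplast receptor of the signal recognition particle. In Arabidopsis this receptor helps to bring light-harvesting proteins to the thylakoid membrane. It had 16.5, 19.2, 16.1 and 15.5 TPM in pillar trees, against 8.41, 8.06, 6.31 and 7.09 TPM in standard trees. The pillar mean was 2.25 times the standard mean, and with a log2 fold change of 1.12 ± 0.13 (SE) this was the smallest change among the 11 genes (adjusted p = 0.0155). The panels of TPM by tree show the spread of both groups for all 11 genes.

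**Figure D2:**
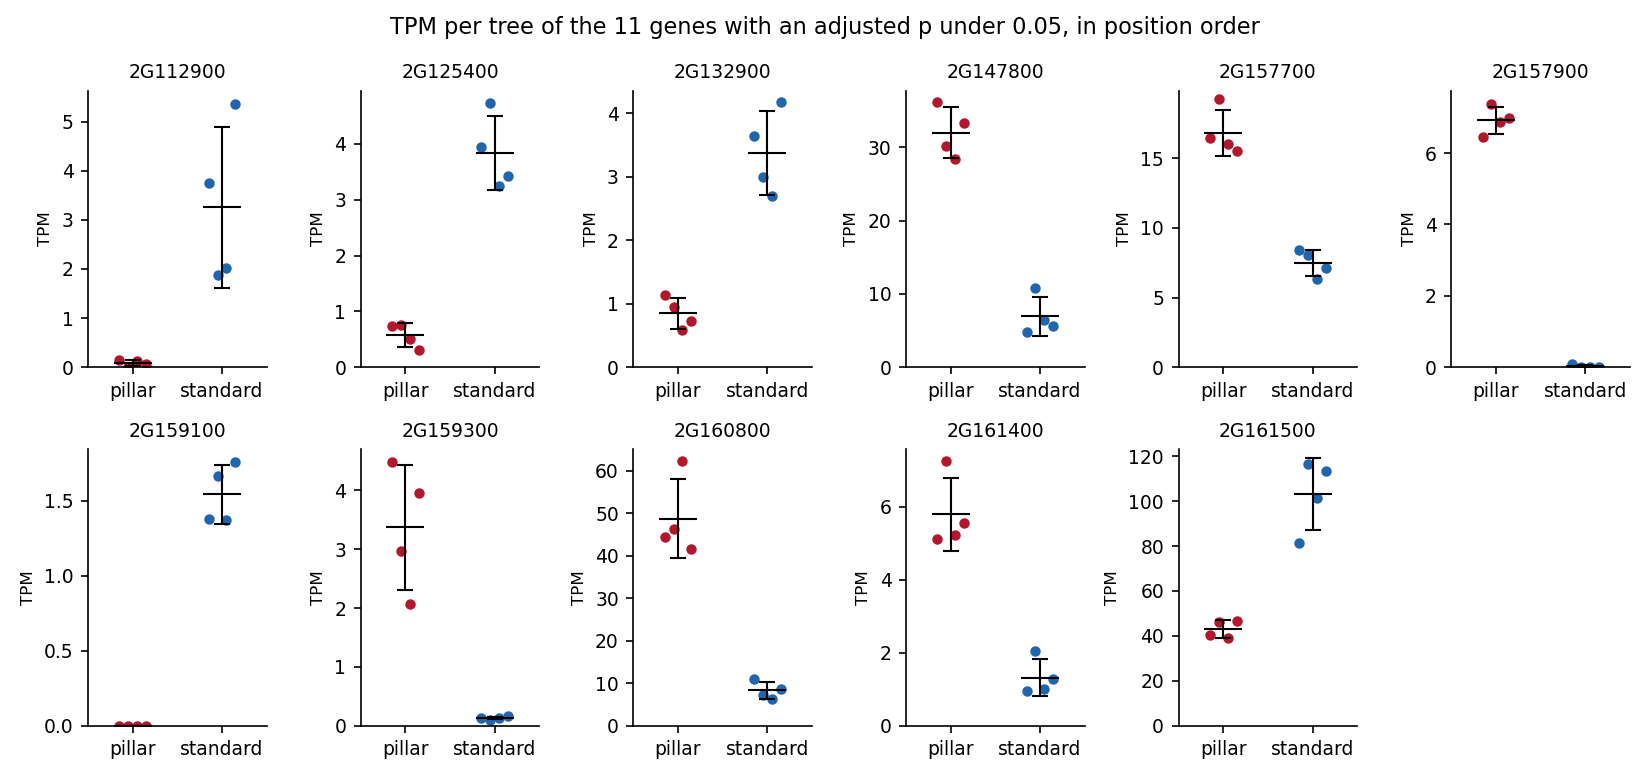
TPM in each tree (y axis, linear from 0, scaled per panel) for the 11 genes with an adjusted p under 0.05, in order of position, with pillar trees in red and standard trees in blue. Each point is 1 tree, the horizontal line is the group mean and the bars are ± 1 SD (n = 4 trees a group). In each panel the highest tree of the lower group lies under the lowest tree of the higher group.

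All of these tests rest on 4 trees a group, and leaving out 1 tree at a time gave 7 to 14 members with an adjusted p under 0.05 in limma, and 17 to 85 over all genes tested. Without pillar tree 7, 8 or 10, or without standard tree 10, 7 members passed. Of the 11 genes, 6 passed whichever tree was left out: Prupe.2G125400, Prupe.2G147800, Prupe.2G157900, Prupe.2G159100, Prupe.2G159300 and Prupe.2G160800. The column names place pillar trees 4 and 7 in lane 8 of the sequencer and all other trees in lane 6. Within lane 6, where 2 pillar trees remain, 4 of the 11 genes passed the adjusted test, among 24 of all genes tested there.

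The largest annotated family of the segment was a row of NAD(P)-binding Rossmann-fold genes, which all match the same Arabidopsis gene. Enzymes of this superfamily use NAD(H) or NADP(H) to oxidise or reduce small molecules. On 1 strand, 7 copies from Prupe.2G160700 to Prupe.2G162300 lie within 0.0555 Mb of each other and were all members. Of the 7, 2 rose and 1 fell in pillar trees by the adjusted test, while 4 did not pass it. Their median log2 fold change was 1.13, against -0.09 over all genes tested. The list comes from the study's own table of differing genes, which was drawn up on these trees, so its direction is not independent evidence.

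Prupe.2G160800, at positions 21253884 to 21256148, rose most. It had 44.5, 46.4, 62.3 and 41.6 TPM in pillar trees, against 10.98, 7.33, 6.21 and 8.66 TPM in standard trees, a 5.87-fold difference of the means (log2 fold change 2.49 ± 0.19 SE, adjusted p = 0.000896). Prupe.2G161400, at positions 21272103 to 21274106, had 5.11, 7.26, 5.22 and 5.55 TPM in pillar trees, against 0.946, 2.04, 0.994 and 1.28 TPM in standard trees (a log2 fold change of 1.82 ± 0.22 SE, with an adjusted p of 0.0178). The next copy along the chromosome went the other way. Prupe.2G161500, at positions 21279406 to 21281772, had 40.6, 46.3, 38.9 and 46.6 TPM in pillar trees, against 81.2, 117, 101 and 113 TPM in standard trees (a log2 fold change of -1.24 ± 0.14 SE, with an adjusted p of 0.0102).

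The other 4 copies did not pass the adjusted test. Prupe.2G161000 had 9.03, 12.9, 22.6 and 10.3 TPM in pillar trees and 5.50, 3.75, 4.46 and 4.93 TPM in standard trees (a log2 fold change of 1.38, with an adjusted p of 0.271). Prupe.2G162300 had 6.99, 6.80, 4.65 and 8.42 TPM in pillar trees and 12.8, 13.3, 9.77 and 14.8 TPM in standard trees (a log2 fold change of -0.88, with an adjusted p of 0.425). Neither pair of groups overlapped. In Prupe.2G160700 and Prupe.2G161300 they did, and pillar tree 8 was the highest of all trees in both, at 229 and 46.1 TPM.

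Summed over the 7 copies, levels were 195, 237, 408 and 198 TPM in pillar trees, against 204, 202, 165 and 198 TPM in standard trees. The sums of the groups overlap, and pillar tree 8 stands apart through Prupe.2G160700. Reads that fit several copies can be divided among them by the aligner, which was set to keep reads with several hits. This leaves the level of any 1 copy less certain than that of a gene without close relatives. Whether the copies of pillar and standard trees differ in sequence was not tested.

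Genes of wax and lipid metabolism also came in several copies. CER1 of Arabidopsis is needed to form the alkanes of the cuticular wax, and 3 members match it. None of the 3 passed the adjusted test. Prupe.2G113600 had 10.8, 5.06, 4.84 and 10.6 TPM in pillar trees, against 2.96, 4.84, 4.00 and 4.64 TPM in standard trees (a log2 fold change of 0.78, with an adjusted p of 0.902), so that its groups barely parted. Prupe.2G113500, the neighbouring copy, had 3.19, 0, 0.300 and 0.260 TPM in pillar trees, against 4.09, 4.52, 0.632 and 3.91 TPM in standard trees (a log2 fold change of -1.67, with an adjusted p of 0.902). In this gene pillar tree 4 was close to most of the standard trees and standard tree 9 to the other pillar trees. Prupe.2G112800, the third copy, had a log2 fold change of -1.22 with groups that overlapped.

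Both thioesterase genes had positive fold changes, and neither passed the adjusted test. Thioesterases cut fatty acids and other acyl groups from their carriers. Prupe.2G157800 had 6.51, 7.52, 10.0 and 8.94 TPM in pillar trees, against 3.60, 3.76, 4.03 and 2.56 TPM in standard trees (a log2 fold change of 1.13, with an adjusted p of 0.135). Prupe.2G158100 had 20.4, 23.4, 33.3 and 33.2 TPM in pillar trees, against 16.7, 19.6, 16.8 and 14.9 TPM in standard trees (a log2 fold change of 0.66, with an adjusted p of 0.768). Its gene region overlaps that of another gene. The groups did not overlap in either thioesterase gene.

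The calcium-dependent lipid-binding genes, whose CaLB domain binds membrane lipids, lay close together and had fold changes of opposite sign. Prupe.2G158500 had 111, 81.7, 93.3 and 127 TPM in pillar trees, against 205, 203, 198 and 185 TPM in standard trees (a log2 fold change of -0.96, with an adjusted p of 0.0736). Prupe.2G158700 had 50.0, 45.6, 46.6 and 54.9 TPM in pillar trees, against 37.7, 30.3, 26.5 and 34.6 TPM in standard trees (a log2 fold change of 0.61, with an adjusted p of 0.383). The groups did not overlap in either gene.

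Among the members annotated as receptors or defence genes, none passed the adjusted test with all trees. Prupe.2G121000, an intracellular disease resistance protein of the TIR-NBS-LRR class, had 5.05, 3.90, 3.71 and 2.56 TPM in pillar trees, against 11.2, 5.99, 7.85 and 10.8 TPM in standard trees (a log2 fold change of -1.13, with an adjusted p of 0.386). The adjoining gene, Prupe.2G120900, encodes an EF-hand protein, a type that binds calcium. It had 9.58, 7.71, 8.92 and 8.29 TPM in pillar trees, against 1.36, 4.49, 1.20 and 1.48 TPM in standard trees (a log2 fold change of 1.95, with an adjusted p of 0.138). The groups of both genes were apart, and standard tree 8 was the nearest to the pillar trees in each.

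Prupe.2G128400, a receptor-like protein, had 3.12, 4.33, 6.27 and 2.38 TPM in pillar trees, against 0.385, 2.65, 0.382 and 0.429 TPM in standard trees (a log2 fold change of 1.81, with an adjusted p of 0.616). Prupe.2G128500 starts 0.00418 Mb further on and encodes a pentatricopeptide repeat protein, a family that binds organelle RNA. It had 2.47, 1.70, 2.07 and 1.20 TPM in pillar trees, against 0.320, 1.20, 0.353 and 0.340 TPM in standard trees (a log2 fold change of 1.21, with an adjusted p of 0.605). In both genes standard tree 8 was within or at the edge of the range of the pillar trees.

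Prupe.2G138500 matches an Arabidopsis gene for a peptide that acts in root development. It had 4.00, 3.20, 2.58 and 9.76 TPM in pillar trees, against 0.706, 2.02, 2.10 and 1.42 TPM in standard trees (a log2 fold change of 1.28, with an adjusted p of 0.843). Pillar tree 10 was well above the others. Of the remaining genes with the lowest fold changes, Prupe.2G158900 had 1.25, 1.39, 1.07 and 1.40 TPM in pillar trees, against 2.47, 2.83, 2.50 and 2.59 TPM in standard trees (a log2 fold change of -0.80, with an adjusted p of 0.295). Prupe.2G113000 had 17.5, 24.7, 20.6 and 27.9 TPM in pillar trees, against 34.03, 35.5, 28.1 and 45.6 TPM in standard trees (a log2 fold change of -0.65, with an adjusted p of 0.793). Groups did not overlap in these 3 genes.

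Annotations were at hand for 37 of the members, 29 of them with a family or protein name, and all came from the study's list of genes that differed between these trees. Counts by family cannot be read as a sample of the segment. Of the 37, 7 passed the adjusted test and are described above. A pair of adjoining leucine-rich repeat receptor kinase genes, which encode proteins that sense signals at the cell surface, match the same Arabidopsis gene. Prupe.2G116100 had 0.498, 1.70, 0.953 and 0.939 TPM in pillar trees, against 0.233, 0.306, 0.297 and 0.413 TPM in standard trees. Prupe.2G116200 had 5.83, 1.41, 1.65 and 1.42 TPM in pillar trees, against 0.945, 0.992, 0.456 and 1.26 TPM in standard trees. The groups of both were apart, with adjusted p of 0.847 and 0.902, and pillar tree 4 was the lowest pillar tree in one and by far the highest in the other.

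The 2 cell wall genes had fold changes of opposite sign and overlapping groups. Prupe.2G147700, a fasciclin-like arabinogalactan protein of the cell surface, had 71.0 to 178 TPM in pillar trees and 125 to 266 TPM in standard trees (adjusted p = 0.902). Prupe.2G175100, of the pectin lyase-like superfamily, had 72.1 to 167 TPM in pillar trees and 53.5 to 127 TPM in standard trees (adjusted p = 0.902). The single annotated transcription factor, Prupe.2G140000 of the zinc-binding PLATZ family, had 0.672 to 4.01 TPM in pillar trees and 1.99 to 7.05 TPM in standard trees, again with groups that overlap.

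The other 21 members whose groups did not overlap, Prupe.2G116100, Prupe.2G116200 and Prupe.2G159000 among them, had smaller differences than most of those above. Of these, 7 were higher and 14 lower in pillar trees, their log2 fold changes ran from -0.55 to 0.95, and 17 were within 1.5-fold. The lowest adjusted p among them was 0.295.

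Many of the genes whose groups were apart lay in 1 stretch. Between Prupe.2G157600 and Prupe.2G161600, at positions 21095617 to 21285749, lay 34 members within 0.190 Mb. In this stretch, whose limits were set after the values were seen, 17 members (50.0%) did not overlap, 10 higher and 7 lower in pillar trees, against 2.93% of all genes tested. It held 7 of the 11 genes past the adjusted test, which is 20.6% of its members, against 0.120% of all genes tested. Of these 7, Prupe.2G157900, Prupe.2G159100 and Prupe.2G159300 averaged under 5 reads in 1 group. They were not tested when 5 reads were required in each group. Calls in the last 1.2 Mb of the segment, which hold this stretch, then fell from 7 to 4. Over all genes tested they fell from 24 to 16. Of the first 15 members of the stretch, Prupe.2G157600 to Prupe.2G159300, 12 did not overlap. Genes of opposite direction lay side by side. Along the whole segment, 15 pairs of adjacent members both had groups that did not overlap, and these pairs had the same direction in 7 cases and opposite directions in 8.

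**Figure D3:**
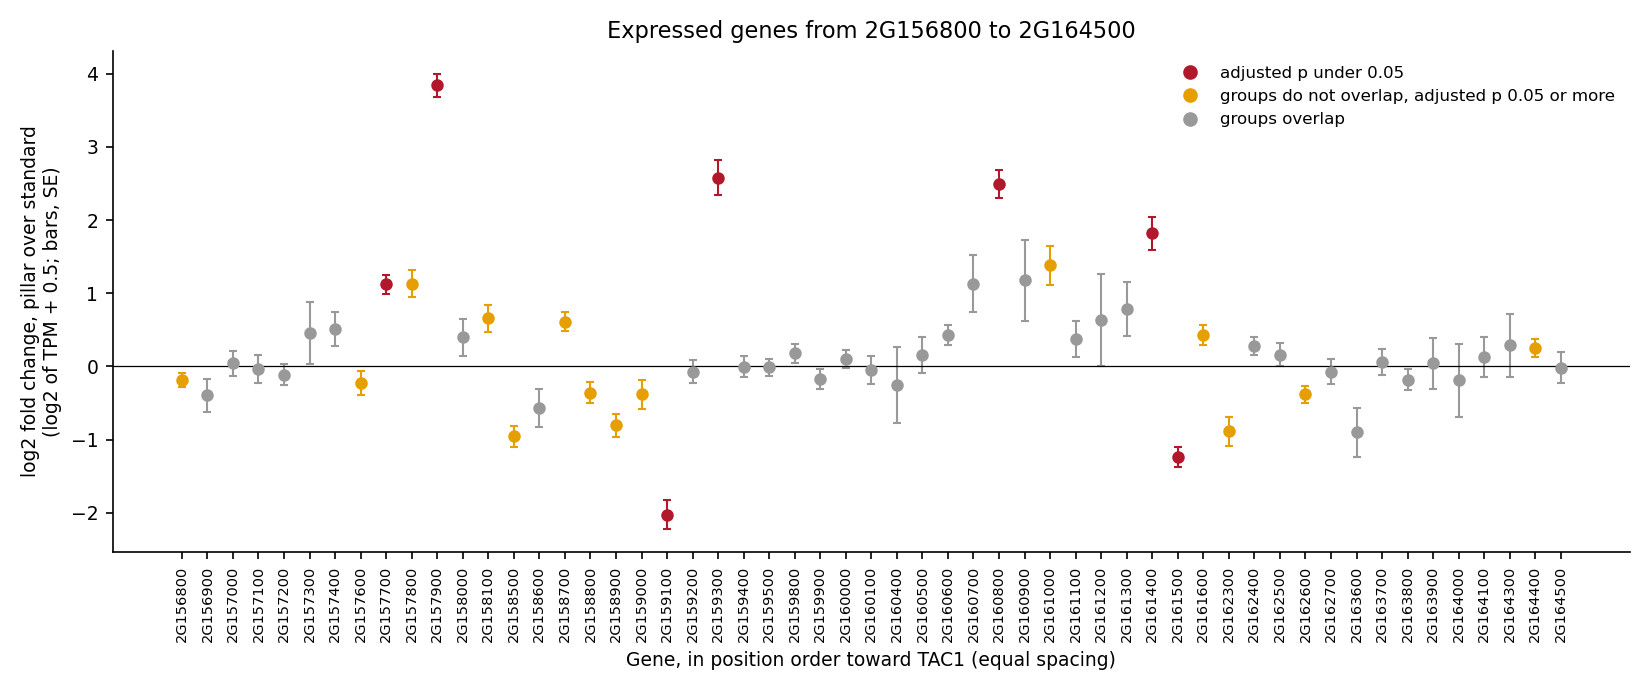
Log2 fold change, pillar over standard (y axis, log2 of TPM + 0.5; bars are ± 1 SE from limma, 4 trees a group), for each member from Prupe.2G156800 to Prupe.2G164500 in order of position (x axis, equal spacing). Red marks an adjusted p under 0.05 and orange groups that did not overlap. Genes with high positive values stand next to genes with negative values, and from Prupe.2G162400 on no gene passed the test.

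Shares in the part of the segment nearest to TAC1 were near or under those over all genes tested. From the gene after Prupe.2G164400 to the end of the segment, at positions 21417290 to 22196533, lay 84 members, of which 1 did not overlap (1.19%, against 2.93% of all genes tested). The adjusted test in limma, which 0.120% of all genes passed, called 0 of them, as did voom on the recovered reads. At so low a share, 0 calls among 84 genes says little. Of these 84, 3 had an unadjusted p under 0.05 (3.57%, against 4.77% of all genes tested). The start of this stretch was chosen after the values were seen, and its shares were not tested against the rest. The stretch begins directly after a gene whose groups did not overlap, a choice that lowers its share of such genes. The gene that did not overlap was Prupe.2G175900, the last such member along the segment. It had 0.530, 0.449, 0.435 and 0.363 TPM in pillar trees, against 0.551, 1.12, 0.547 and 0.737 TPM in standard trees (a log2 fold change of -0.37, with an adjusted p of 0.902), so that its groups almost touched. The interval from Prupe.2G164400 to this gene, 0.729 Mb with 74 members, was the longest in the segment without a gene whose groups were apart.

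By windows of 1 Mb, 11 of 85 members (12.9%) did not overlap from 17 to 18 Mb, 2 of 41 (4.88%) from 18 to 19 Mb, 6 of 78 (7.69%) from 19 to 20 Mb, 6 of 105 (5.71%) from 20 to 21 Mb, and 22 of 140 (15.7%) in the last window of 1.2 Mb, against 2.93% of all genes tested. The adjusted test called 1 member in each of the first 4 windows, which is 0.952% to 2.44% of their members, and 7 in the last (5%), against 0.120% of all genes tested. Without pillar tree 4, the share that did not overlap was 27.1% from 17 to 18 Mb and 24.3% in the last window. The share also rose in each of the other windows. With the same tree left out, the share over all genes tested rose from 2.93% to 14.0%. The last window kept 4 to 7 calls whichever tree was left out, while each of the first and the third had 0 to 2. With all trees and 5 reads required in each group, the last window had 4 calls (2.96%) and the first 0, against 0.0812% of all genes tested then.

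**Figure D4:**
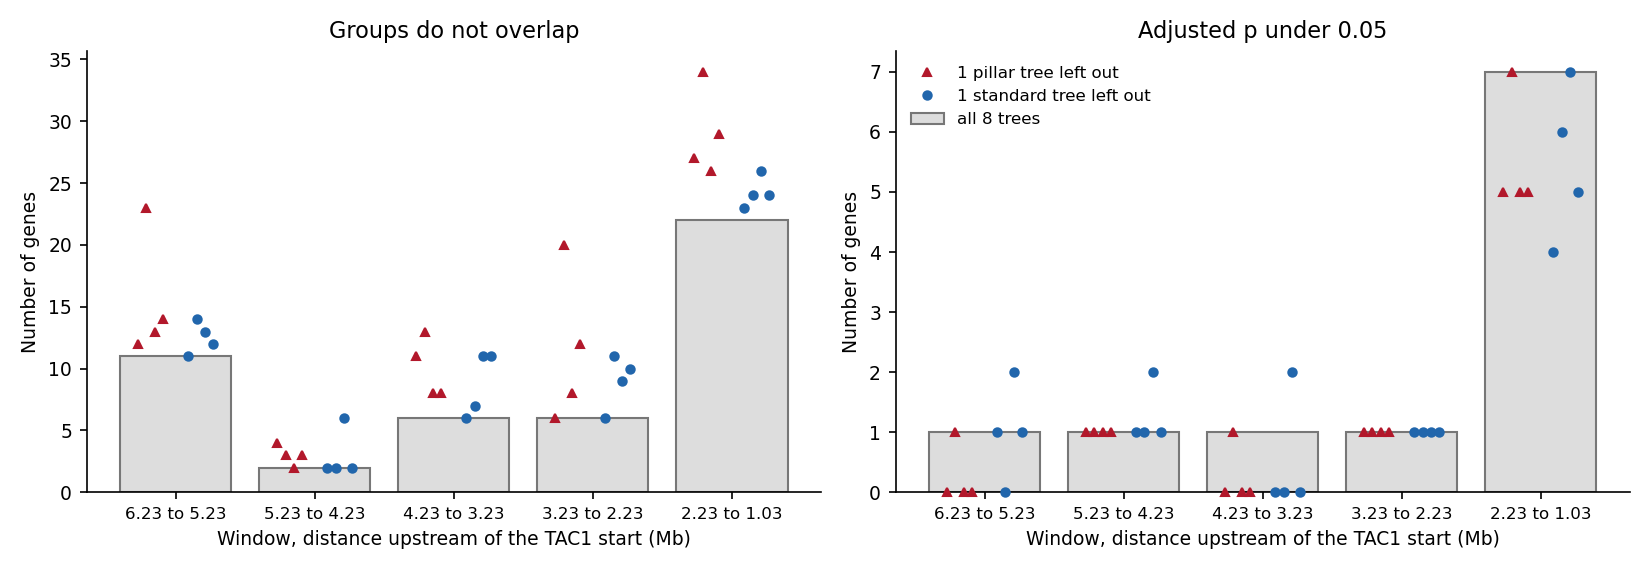
Number of members (y axis) whose groups did not overlap (left) and with an adjusted p under 0.05 (right) in 5 windows along the segment, given by distance upstream of the TAC1 start (x axis, Mb; the last window is 1.2 Mb wide, the others 1 Mb). Bars are all 8 trees, red triangles the counts with 1 pillar tree left out and blue circles with 1 standard tree left out. These are counts, not shares, and the window nearest to TAC1 is also the one with the most members, 140, of which 7 were called with all trees.

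On either side of the segment the counts were as follows. Of 257 genes tested from 10 to 17 Mb of the same chromosome, 33 did not overlap (12.8%, against 10.5% of the members). Of these 257 genes, 0 passed the adjusted test in limma or in voom. An unadjusted p under 0.05 in limma was found for 58 (22.6%, against 14.5% of the members). Of 249 genes in the 2 Mb that follow the segment and hold TAC1, 11 did not overlap (4.42%) and 7 passed (2.81%, against 2.45% of the members). Outside chromosome 2, 431 of 17620 genes did not overlap, which is 2.45%, and 3 passed (0.0170%). These are counts and shares without a test between regions.

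Calls also depended on standard tree 8. Without it, 14 members passed the adjusted test in place of 11, and all 11 were among them. The 3 that were added were Prupe.2G120900 (adjusted p = 0.000525), Prupe.2G128400 (adjusted p = 0.0217) and Prupe.2G134100 (adjusted p = 0.0343), which lie between 17.8 and 19.2 Mb. Prupe.2G134100 had 0.900, 1.77, 0.998 and 1.59 TPM in pillar trees, against 0, 1.20, 0 and 0 TPM in standard trees. In these 3 genes standard tree 8 had a level between those of the other standard trees and the pillar trees, or within the range of the pillar trees. They are listed here because they passed once this tree was left out, so their levels are a description only. Of its group, standard tree 8 came closest to the pillar mean, on the log2 scale, in 31.4% of the members, against 30.3% of all genes tested. By window, from the first to the last, this share was 27.1%, 24.4%, 33.3%, 37.1% and 30.7%. Without this tree 85 of all genes tested passed, in place of 24, among them 24 from 10 to 17 Mb in place of 0 and 16 outside chromosome 2 in place of 3. The tree can be followed in the map of the 47 genes by tree, in which it is paler than the other standard trees at Prupe.2G120900 and Prupe.2G128500.

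**Figure D5:**
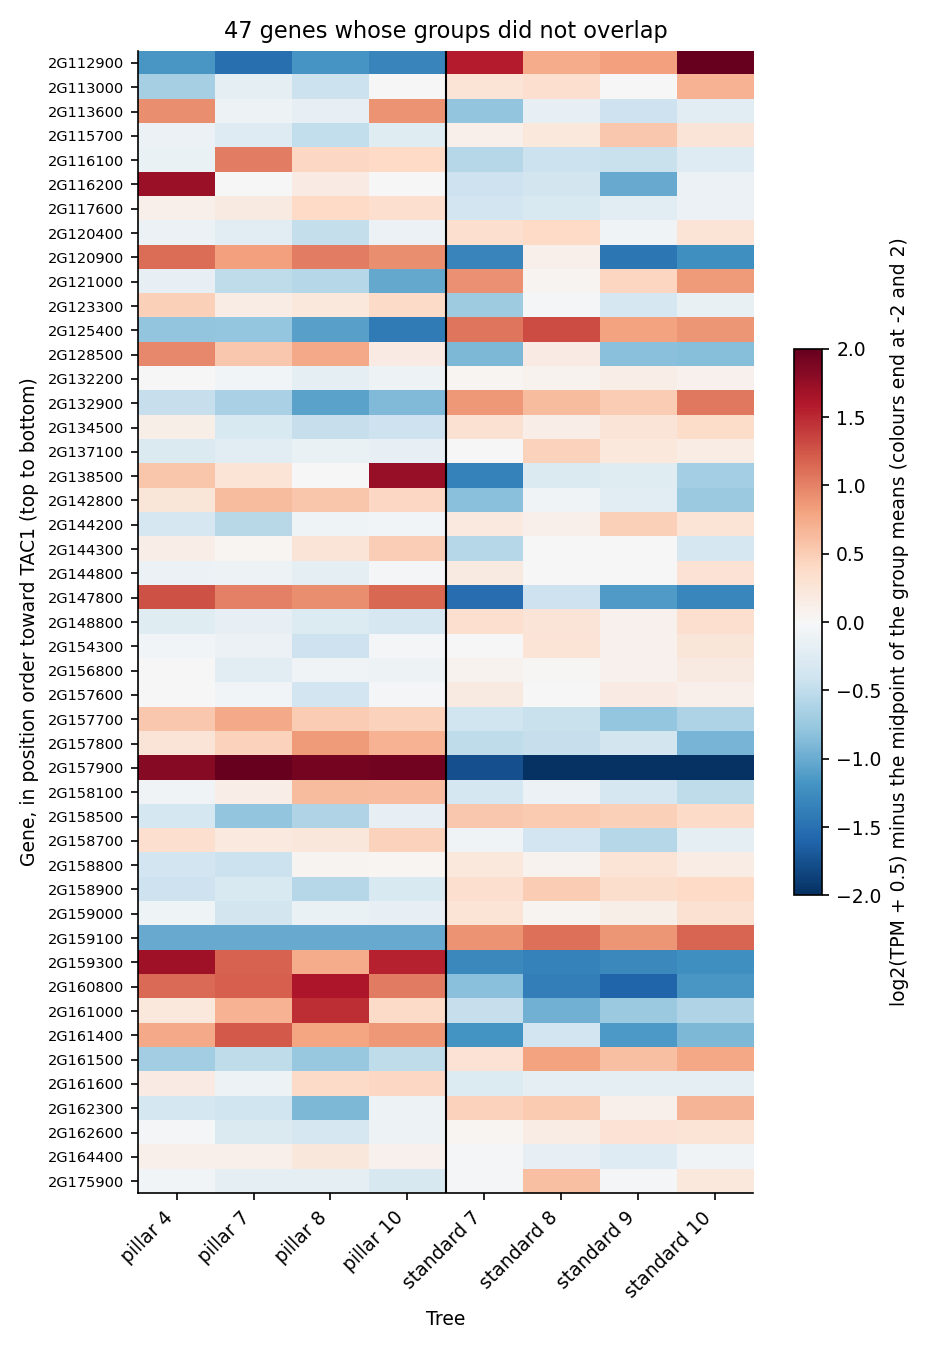
Log2(TPM + 0.5) of the 47 members whose groups did not overlap (rows, in order of position toward TAC1) in each tree (columns, pillar trees left of the line), as the difference from the midpoint of the 2 group means. Red is above and blue below the midpoint, and the colours end at -2 and 2. The rows of Prupe.2G157900 and Prupe.2G159300 have strong colours in all 8 trees, and standard tree 8 is close to the midpoint in Prupe.2G120900 and Prupe.2G128500.

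The genes with the highest levels in the segment differed little between the groups. Prupe.2G164400 had 647, 641, 704 and 635 TPM in pillar trees, against 587, 537, 505 and 572 TPM in standard trees. Its groups did not overlap although the means were only 1.19-fold apart (log2 fold change 0.26, adjusted p = 0.902). Prupe.2G133700 had 376, 324, 629 and 478 TPM in pillar trees, against 515, 545, 704 and 539 TPM in standard trees (a log2 fold change of -0.38, with an adjusted p of 0.902). Prupe.2G161100, which lies among the Rossmann-fold genes but has no annotation in the table used, had 307, 367, 609 and 312 TPM in pillar trees, against 370, 311, 230 and 287 TPM in standard trees (a log2 fold change of 0.37, with an adjusted p of 0.902). The groups of these last genes overlap.

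The level that defines members also left out genes whose groups did not overlap. Of the 202 genes under it, 10 did not overlap, 1 higher and 9 lower in pillar trees. The share among genes under this level elsewhere in the genome was not counted. Some of the 10 rest on very few reads. Prupe.2G112400, for example, had 0 reads in each pillar tree and 1 in each standard tree. Just under the level, Prupe.2G128300 had no read in any pillar tree and 1.07, 0.855, 0.756 and 1.31 TPM in standard trees (mean of all trees 0.498 TPM). Prupe.2G131800 (mean 0.483 TPM) was next. Just above it were Prupe.2G159000 (mean 0.511 TPM) and Prupe.2G132100 (mean 0.530 TPM), of which the second owed its mean to pillar tree 4 alone, at 3.60 TPM.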

How the data were processed

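RNA of 8 trees was sequenced by the submitters as unpaired 50 bp reads. The authors used CLC Genomics Workbench to align trimmed reads to version 2 of the peach genome, keeping reads with several hits, and deposited TPM per gene; per the file headers each gene has 2 rows, and the second, which is 0 throughout, was not used. The deposited comparison columns (fold changes, p-values, false discovery rates, group means) were not used. TPM follow the gene region's length, and reads were recovered from the TPM steps (100% whole within 0.05 reads for values under 10000 reads).

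Genes averaging 0.5 TPM or more were tested with limma 3.58.1 (R 4.3.3; variance trend) on log2(TPM + 0.5), with growth habit as the only term and Benjamini-Hochberg adjustment over 20055 genes. The fold change is on this scale, which understates the change of low genes. Single genes were also given an exact two-sided permutation test, whose smallest possible p is 0.0286, reached by every gene whose groups do not overlap. The model was tested on simulated data. Members, lists and windows were chosen with earlier results of these data known. Genes were named by rule: adjusted p under 0.05, the 10 highest and 10 lowest fold changes among non-overlapping members, the 3 highest levels, the first and last non-overlapping member, up to 2 calls gained by leaving out each tree, the highest and lowest of each annotated family, and 2 genes on each side of the level of 0.5 TPM; other copies of the families, Prupe.2G134100 and the stretches were chosen after their values were seen. Descriptions come from the study's annotation of its gene list, since 0 identifiers matched the RefSeq table. The alternatives were other scalings (library size, upper quartile), pseudocounts of 0.1 and 1, other filters, no variance trend, each tree left out, lane 6 alone, tree number as a block, thresholds of 0.01 and 0.1, members without overlapping gene regions, and voom on the recovered reads, added after seeing the data. One tree is 1 replicate; the labels call the trees biological replicates. The methods give 3 shoot tips a tree and the series record 4.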

Additional observations from a re-analysis of the deposited data

Results flagged for a closer look

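Among 30 of the genes named by rule, 60 groups of 4 trees were checked for a tree far from the others by Dixon's test, and 8 stood out. Chance alone gives about 1 in 20 groups only where genes are not picked from the same values. These genes were picked from them, so the 8 of 60 are a description and are not set against that rate. In particular, Prupe.2G120900 and Prupe.2G128400 met a naming rule by passing the adjusted test once standard tree 8 was left out. Prupe.2G120900 also met the rule on the highest fold changes among non-overlapping members, and Prupe.2G128400 the rule on annotated families. Standard tree 8 was the high one 3 times, with 4.49 TPM in Prupe.2G120900 (other standard trees 1.20 to 1.48 TPM), 2.65 TPM in Prupe.2G128400 (others 0.382 to 0.429 TPM) and 1.20 TPM in Prupe.2G128500 (others 0.320 to 0.353 TPM). Prupe.2G113500 stood out in both groups, with pillar tree 4 at 3.19 TPM (other pillar trees 0 to 0.300 TPM) and standard tree 9 at 0.632 TPM (other standard trees 3.91 to 4.52 TPM). Standard tree 7 had 0.0764 TPM of Prupe.2G157900, a single read, while the other standard trees had 0. Pillar tree 8 had 704 TPM of Prupe.2G164400 (other pillar trees 635 to 647 TPM), and standard tree 9 had 704 TPM of Prupe.2G133700 (other standard trees 515 to 545 TPM).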

How the results depend on the processing

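The count of 11 members with an adjusted p under 0.05 was 10 or 11 under both other scalings, both other pseudocounts, no filter, no variance trend, voom on recovered reads (chosen after seeing the data) and without overlapping gene regions. It was 7 when 5 reads were required in each group, since the 4 genes nearly absent from 1 group were then not tested. This is 1.60% of the members tested then, against 0.0812% of all genes tested. The count was 4 in lane 6 alone, which leaves 2 pillar trees (0.891%, against 0.120% of all genes tested), and 6 at a threshold of 0.01. Leaving out 1 tree gave 7 to 14 called members, among 17 to 85 of all genes tested. Members whose groups did not overlap then numbered 48 to 93, the highest without pillar tree 4. This is 10.7% to 20.7% of the members, against 3.68% to 14.0% of all genes tested. Lane 6 alone gave 153 such members (34.1%, against 28.6% of all genes tested), with fewer trees to separate. With tree number as a replicate block, 1 member, Prupe.2G157900, was called (adjusted p = 0.0400). Same-numbered trees deviated from their group means with correlations of 0.29, 0.10 and -0.09 for numbers 7, 8 and 10, so the numbers were not taken to pair the trees. None of the 30 named genes followed through the alternatives changed the sign of its fold change. The genes named for lying just above or just under 0.5 TPM were not followed. Prupe.2G132100, which owed its mean to pillar tree 4 alone, is one of these. With 4 trees a group, genes with few reads in both groups limit what can be called.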
